A study of Homo sapiens with 12 samples.

Results

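The liver X receptors (LXR) and the genes of cholesterol efflux were examined in ARPE-19, a human cell line that was derived from the retinal pigment epithelium (RPE). The set holds 9 genes, chosen by symbol: the receptors NR1H3 (LXR alpha) and NR1H2 (LXR beta), and ABCA1, ABCG1, MYLIP, APOE, LPCAT3, SCARB1 and SOAT1. Each symbol matched 1 line of a table of 60605 lines, and all 9 genes passed the filter on low counts that left 15179 genes for testing. Poly(A) RNA was sequenced in 12 libraries, 3 in each of 4 groups. WT denotes ARPE-19 cells for which the labels name no open reading frame (ORF). GFP is a stable line carrying the fluorescent protein as ORF. GSTA4 is a stable line carrying glutathione S-transferase alpha 4, an enzyme that clears lipid aldehydes. OSK is a stable line read as carrying POU5F1 (OCT4), SOX2 and KLF4. The design text places collection of the stable cells at 4 days of ORF expression. The labels do not name the promoter or vector, and do not say whether a group is 1 clone, 1 pool or several lines, so the effect of an ORF cannot be told apart from other differences between lines. Nor do they state if the 3 libraries per group are from separate cultures, so p-values measure the spread between these libraries, which may be technical.

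LXRs are nuclear receptors that pair with a retinoid X receptor (RXR) and are switched on by oxysterols, oxidised forms of cholesterol that build up when a cell holds more sterol than it needs. In many cells they raise ABCA1 and ABCG1, the transporters that hand cholesterol to lipoprotein particles, and APOE, an apolipoprotein that accepts it. They also raise MYLIP (IDOL), a ubiquitin ligase that limits lipoprotein uptake, and LPCAT3, an acyltransferase that puts polyunsaturated fatty acids into membrane phospholipids. SCARB1 is a receptor for high-density lipoprotein that moves cholesterol across the plasma membrane, and SOAT1 esterifies cholesterol for storage. RPE cells take up lipid-rich photoreceptor tips every day, and sterol export is one of the ways by which they dispose of it.

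Values are given as CPM, read counts brought to a common library total (scaled by TMM), each with its SD (n = 3 libraries). A gene was called where its adjusted p by the quasi-likelihood test of edgeR was under 0.05. Total counts ran from 12630675 to 17045454, at which a count of 3 reads corresponds to 0.177 to 0.228 CPM. GFP replicate 1 had reads on 27349 named genes, against 22073 at most in the other libraries. WT replicate 1 stood apart from the other WT libraries, with a chi-square per degree of freedom over genes of 15 and 17.4, against 2.54 between WT replicates 2 and 3. The ORF genes followed the labels: GSTA4 had 415.8 CPM ± 17.6 in its own line and 8.79 ± 0.849 in GFP, while POU5F1, SOX2 and KLF4 stood at 779.1 ± 26.8, 628.1 ± 5.02 and 927.8 ± 18.9 in OSK. Of 16 RPE markers, RPE65, DCT and TTR did not pass the filter, so these defining genes were at or near 0, while MITF, OTX2, PMEL, KRT8 and KRT18 were measured in each group. Of 9 markers of macrophages and other leukocytes, cells known for strong LXR activity, only CSF1R passed the filter.

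The ABCA1 promoter is shown because it held a match to an LXR element and ABCA1 was higher in both ORF lines. The LPCAT3 promoter is shown because LPCAT3 had the widest spread of levels among the 9 genes. Both are the 250 bases before the start site in RefSeq (GRCh38.p14), on the minus strand, 5′ to 3′ toward the gene; in GENCODE 29 both genes begin further upstream, inside these windows. They lie at chr9:104928156-104928405 for ABCA1 and chr12:7018477-7018726 for LPCAT3. Capitals mark the match to an LXR element.
ABCA1: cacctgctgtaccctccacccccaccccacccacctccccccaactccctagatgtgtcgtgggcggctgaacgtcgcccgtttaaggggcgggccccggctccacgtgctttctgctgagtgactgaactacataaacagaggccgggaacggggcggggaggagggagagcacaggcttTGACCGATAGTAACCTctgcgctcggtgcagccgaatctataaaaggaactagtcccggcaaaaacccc
LPCAT3: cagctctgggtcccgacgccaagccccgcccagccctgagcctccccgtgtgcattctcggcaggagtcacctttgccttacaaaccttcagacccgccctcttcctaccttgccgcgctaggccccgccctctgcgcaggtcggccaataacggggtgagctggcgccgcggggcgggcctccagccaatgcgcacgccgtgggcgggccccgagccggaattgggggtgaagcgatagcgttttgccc

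The element searched for was a direct repeat of AGGTCA with 4 free letters between the copies, on both strands, allowing 2 mismatches over its 12 fixed letters. The ABCA1 match begins 69 bases before the start site in RefSeq and reads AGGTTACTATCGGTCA on the opposite strand. In GENCODE 29 ABCA1 begins at chr9:104928237 on the minus strand, so there the match lies inside the gene, downstream of its start. Promoter windows of 250 bases before to 50 after a start were found for 7 of the 9 genes, with 12 windows in all, and ABCA1 was the 1 gene with a match. Among 35116 windows of all genes, 2.34% held a match. No window was found for ABCG1 and SCARB1. In the LPCAT3, MYLIP, APOE, SOAT1, NR1H2 and NR1H3 windows these letters were not found, which says nothing of elements outside the windows or of other form.

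The receptors moved in opposite directions between the control cells. NR1H2 had 115.8, 103.8 and 103.1 CPM in WT, 81.06, 81.86 and 90.21 in GFP, 121.9, 110.5 and 104 in GSTA4, and 153.6, 133.1 and 140.1 in OSK. GFP lay lowest and OSK highest, and only WT and GSTA4 overlapped. NR1H2 rose by 0.41 on the log2 scale in GSTA4 against GFP (SE 0.0746, edgeR adjusted p 0.000272) and by 0.75 in OSK against GFP (SE 0.0742, edgeR adjusted p 4.7e-08). It fell by 0.35 in GFP against WT (SE 0.0745, edgeR adjusted p 0.0022), so that GSTA4 stood 0.06 from WT (95% interval -0.0929 to 0.214, edgeR adjusted p 0.551) while OSK was still higher than WT by 0.40 (SE 0.073, edgeR adjusted p 0.000119).

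NR1H3 had 5.72, 6.39 and 5.84 CPM in WT, 9.73, 12.97 and 10.67 in GFP, 8.77, 7.51 and 8.94 in GSTA4, and 9.18, 8.36 and 8.44 in OSK. WT was below every other library, GFP was above them, and GSTA4 and OSK overlapped. It rose by 0.90 in GFP against WT (SE 0.149, edgeR adjusted p 0.000246) and by 0.53 in OSK against WT (SE 0.152, edgeR adjusted p 0.00669). Against GFP its log2 fold changes were -0.40 in GSTA4 and -0.36 in OSK, with edgeR adjusted p of 0.0422 and 0.0463. Both were marginal: without GFP replicate 2 they were -0.29 and -0.23, with adjusted p of 0.2 and 0.248, and over the alternatives the adjusted p ran from 0.0282 to 0.2 for GSTA4 and from 0.018 to 0.248 for OSK. The NR1H3 exons share 189 bases with those of ACP2 on the other strand in GENCODE 29, and the strand setting of the counts is not given in the sources used here. ACP2 itself changed by -0.42 in GSTA4 against GFP (edgeR adjusted p 0.000914) and by 0.33 in GFP against WT (edgeR adjusted p 0.0095). In OSK it changed by 0.15 against GFP (edgeR adjusted p 0.148), by 0.58 against GSTA4 (1.16e-05) and by 0.48 against WT (9.24e-05). In GSTA4 against WT, ACP2 stood at -0.09 (edgeR adjusted p 0.429), where NR1H3 rose by 0.49 (edgeR adjusted p 0.0141). That NR1H3 call was lost without GSTA4 replicate 3 (0.45, adjusted p 0.0562). The part of shared reads in the NR1H3 values was not tested.

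NR1H2 was the more abundant receptor in each library when CPM was divided by the length of the merged exons in GENCODE 29, 3.753 kb for NR1H2 and 4.533 kb for NR1H3. The ratio of NR1H2 to NR1H3 per kb was 9.3 ± 1.45 in GFP and 21.8 ± 2.44 in WT. In GSTA4 it was 16.2 ± 1.94, and in OSK 19.8 ± 0.52. The GFP libraries, at 7.62 to 10.2, lay below the 9 others, which ran from 14 to 24.4.

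**Figure D1:**
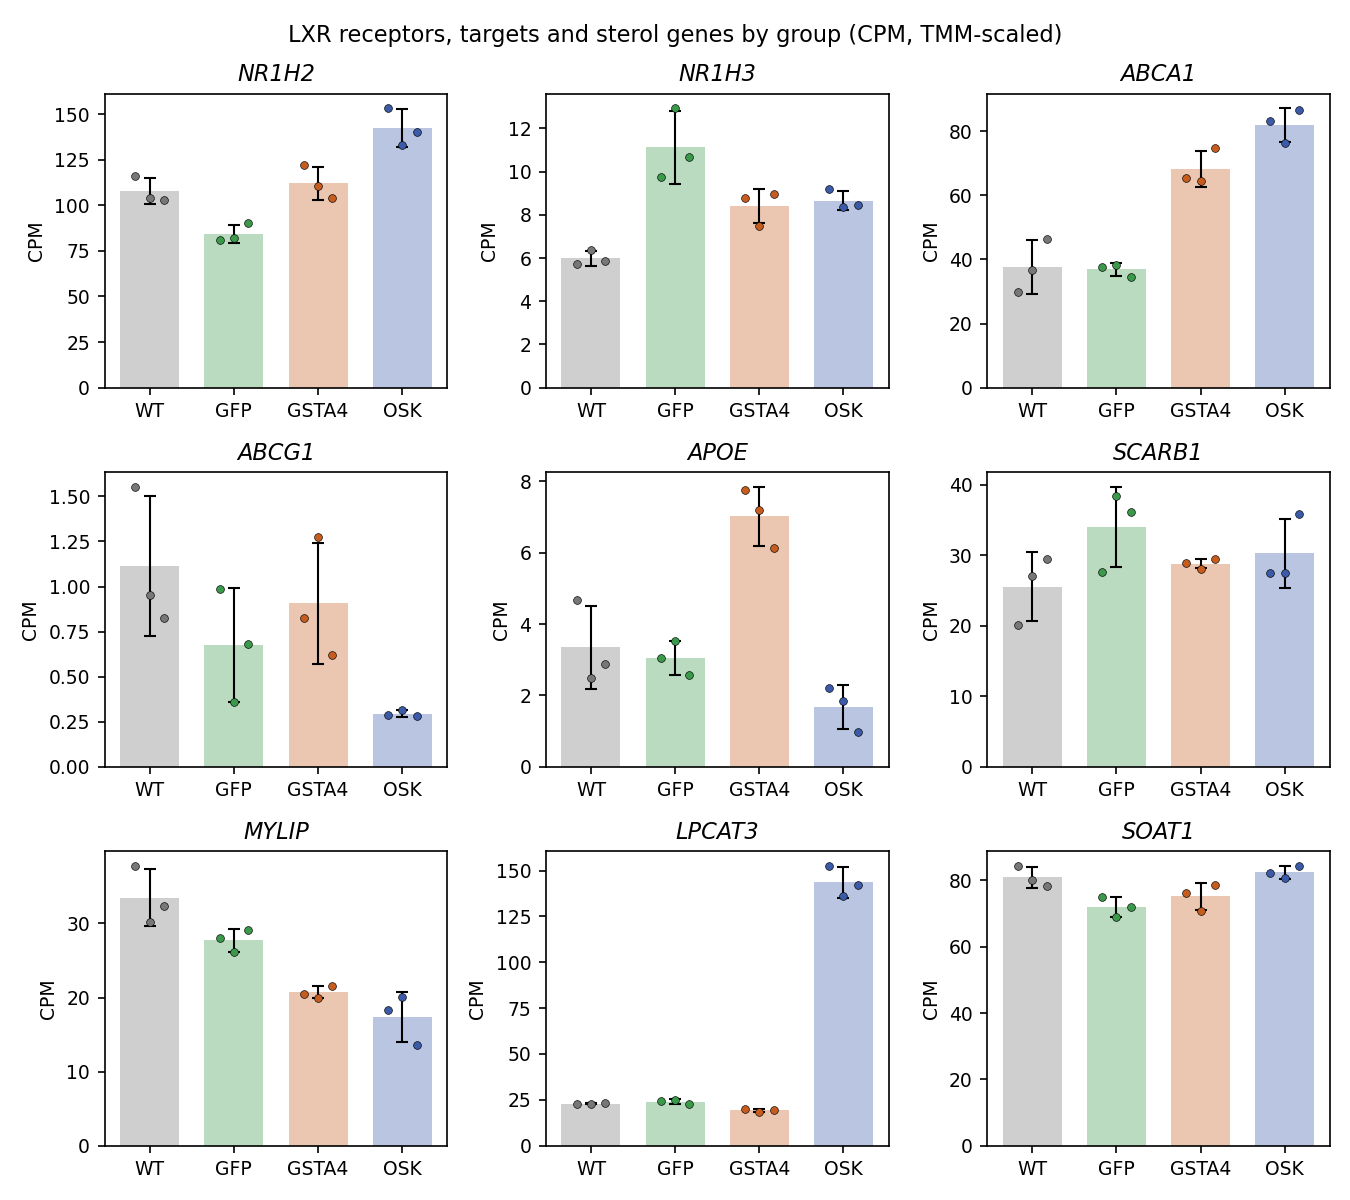
CPM of the 9 genes in WT, GFP, GSTA4 and OSK, on a separate linear axis for each gene, with points for the 3 libraries, bars for the mean and error bars for the SD. LPCAT3 stands at 143.7 CPM in OSK against 19.19 to 24.02 in the other groups, ABCA1 is higher in GSTA4 and OSK than in WT and GFP, and APOE is highest in GSTA4 and lowest in OSK.

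ABCA1, the transporter that loads cholesterol onto lipid-poor apolipoproteins, was higher in both ORF lines than in both controls. Its levels were 29.67, 36.71 and 46.32 CPM in WT, 37.72, 38.21 and 34.64 in GFP, 65.51, 64.47 and 74.58 in GSTA4, and 83.25, 76.16 and 86.6 in OSK. WT and GFP overlapped, and each GSTA4 and OSK library lay above each control library. The rise was 0.89 on the log2 scale in GSTA4 against GFP (SE 0.112, edgeR adjusted p 3.97e-06) and 1.15 in OSK against GFP (SE 0.112, edgeR adjusted p 3.73e-08). Against WT the values were 0.86 (SE 0.111, edgeR adjusted p 3.77e-06) and 1.12 (SE 0.111, edgeR adjusted p 4.18e-08). GFP and WT differed by -0.03 (95% interval -0.271 to 0.21, edgeR adjusted p 0.886). OSK was also higher than GSTA4 by 0.27, but only just past the threshold (SE 0.107, edgeR adjusted p 0.047). That call was lost without WT replicate 2 (0.0535), GFP replicate 1 (0.0551), GSTA4 replicate 1 (0.138) or 2 (0.156), and OSK replicate 1 (0.0874) or 3 (0.131), and with library size alone as the scaling (0.123). Its adjusted p over the alternatives ran from 0.00147 to 0.156.

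ABCG1, which exports cholesterol to mature high-density lipoprotein, was close to the limit of detection. It had 1.56, 0.955 and 0.826 CPM in WT, 0.989, 0.358 and 0.679 in GFP, 0.826, 1.28 and 0.619 in GSTA4, and 0.285, 0.317 and 0.281 in OSK. In reads the OSK libraries held 4, 5 and 4, the GFP libraries 13, 5 and 10, the GSTA4 libraries 13, 17 and 9, and the WT libraries 25, 13 and 14. OSK was below every other library. ABCG1 fell by 1.89 on the log2 scale in OSK against WT (SE 0.526, edgeR adjusted p 0.00579) and by 1.58 in OSK against GSTA4 (SE 0.542, edgeR adjusted p 0.0204). In the latter comparison the adjusted p was 0.109 without GSTA4 replicate 2, and 0.064, 0.0545 and 0.0646 without OSK replicates 1, 2 and 3. Against GFP it stood at -1.17 in OSK (edgeR adjusted p 0.0989), or at -0.81 without GFP replicate 1, and at 0.42 in GSTA4 (edgeR adjusted p 0.561). The ABCG1 values in OSK were therefore lower where those of ABCA1 were higher.

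APOE, the lipoprotein component secreted by RPE and macrophages, separated the ORF lines. It had 4.67, 2.5 and 2.89 CPM in WT, 3.04, 3.51 and 2.58 in GFP, 7.75, 7.21 and 6.12 in GSTA4, and 2.21, 1.84 and 0.985 in OSK. GSTA4 was above and OSK below the control libraries, without overlap. It rose by 1.21 on the log2 scale in GSTA4 against GFP (SE 0.261, edgeR adjusted p 0.00144) and by 1.06 in GSTA4 against WT (SE 0.255, edgeR adjusted p 0.00243). OSK against GSTA4 stood at -2.06 (SE 0.28, edgeR adjusted p 3.38e-06). In OSK it changed by -0.85 against GFP (SE 0.303, edgeR adjusted p 0.0259) and by -1.002 against WT (SE 0.296, edgeR adjusted p 0.00873). The call in OSK against GFP was lost without GFP replicate 1 (log2 fold change -0.85, adjusted p 0.0526), GFP replicate 2 (-0.73, 0.0961) or OSK replicate 3 (-0.59, 0.136), in a range of adjusted p from 0.0112 to 0.136. That against WT was lost without WT replicate 1 (-0.69, 0.0713) or OSK replicate 3 (-0.73, 0.0596).

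SCARB1 read 20.03, 27.1 and 29.44 CPM in WT, 27.6, 38.42 and 36.07 in GFP, 28.85, 28.07 and 29.45 in GSTA4, and 27.39, 27.47 and 35.81 in OSK. The groups overlapped in all 6 comparisons. Its log2 fold change was -0.24 in GSTA4 against GFP (95% interval -0.525 to 0.0398, edgeR adjusted p 0.196) and -0.17 in OSK against GFP (95% interval -0.455 to 0.107, edgeR adjusted p 0.311). The 1 call was in GFP against WT, at 0.42 (SE 0.136, edgeR adjusted p 0.0326). It was lost without WT replicate 1 (0.26, adjusted p 0.145) and without GFP replicate 2 (0.32, 0.162) or 3 (0.37, 0.101), and with only the 6 libraries compared (0.0622).

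LPCAT3, the acyltransferase of the set, had the largest fold change of the 9 genes in OSK against GFP. It had 22.71, 22.62 and 23.31 CPM in WT, 24.41, 25.02 and 22.62 in GFP, 20.21, 18.16 and 19.2 in GSTA4, and 152.8, 136.2 and 142.1 in OSK. OSK was far above all other libraries, and the 3 GSTA4 libraries lay below those of WT and GFP. It rose 5.98-fold in OSK against GFP, or by 2.58 on the log2 scale (SE 0.0747, edgeR adjusted p 2.18e-16), and 6.28-fold in OSK against WT (SE 0.0745, edgeR adjusted p 1.3e-16). In OSK against GSTA4 the log2 fold change was 2.90 (SE 0.0763, edgeR adjusted p 2.77e-17). It fell by 0.32 in GSTA4 against GFP (SE 0.0818, edgeR adjusted p 0.0053) and by 0.25 in GSTA4 against WT (SE 0.0813, edgeR adjusted p 0.0183). The latter was lost without WT replicate 3 (adjusted p 0.0549) or GSTA4 replicate 2 (0.0833), and without the filter on low counts (0.0546).

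LPCAT3 lies on chromosome 12 from 6976186 to 7018510, minus strand (GRCh38, GENCODE 29), and 3100 of its 4725 bases of merged exons are shared with EMG1 on the other strand. EMG1, a ribosome assembly factor, had 31.85 CPM ± 1.36 in GFP and 33.96 ± 3.54 in OSK. The EMG1 change in OSK against GFP was 0.09 on the log2 scale (95% interval -0.101 to 0.286, edgeR adjusted p 0.441). The 95% interval of LPCAT3 in the same comparison was 2.43 to 2.74. Without a known strand setting, reads on the shared bases cannot be assigned, so the EMG1 values do not settle their origin. The part of shared reads in the LPCAT3 values was not tested. PHB2, the next coding gene downstream, had 138.5 CPM ± 11.8 in GFP and 138.1 ± 8.21 in OSK (95% interval of the log2 fold change -0.145 to 0.135). On the other side, C1S, whose gene model overlaps that of LPCAT3 without sharing an exon, rose by 1.15 on the log2 scale in OSK against GFP (SE 0.0817, edgeR adjusted p 3.6e-10). C1R, the nearest coding gene upstream, rose by 1.25 (SE 0.0776, edgeR adjusted p 4.48e-11). Both encode proteases of the complement cascade, and whether the locus moved as a block was not tested.

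**Figure D2:**
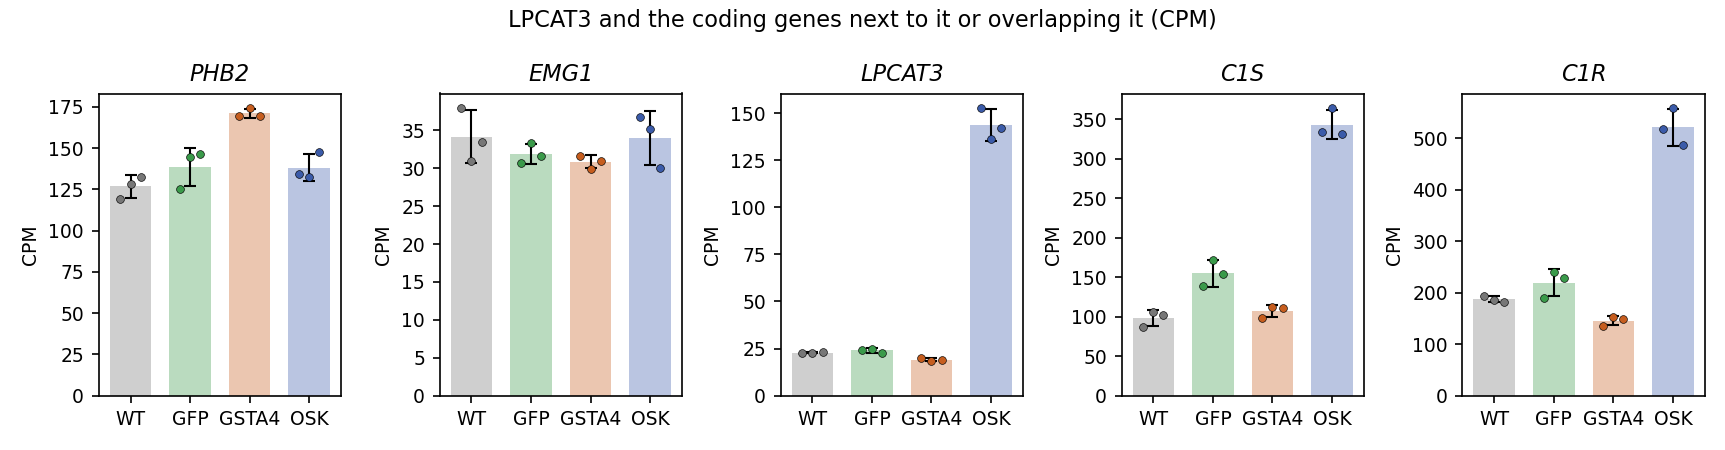
CPM of LPCAT3 and of the coding genes beside it or overlapping it, in their order along the chromosome, on linear axes with points for the 3 libraries, bars for the mean and error bars for the SD. PHB2 and EMG1 in OSK stay near their GFP levels, at 138.1 against 138.5 and 33.96 against 31.85 CPM, while LPCAT3, C1S and C1R are highest in OSK.

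MYLIP, the ubiquitin ligase of the set, was lower in both ORF lines. It had 37.82, 30.25 and 32.39 CPM in WT, 27.98, 26.09 and 29.07 in GFP, 20.52, 19.96 and 21.6 in GSTA4, and 18.36, 20.13 and 13.58 in OSK. All GSTA4 and OSK libraries lay below all WT and GFP libraries, and GSTA4 and OSK overlapped. It fell by 0.42 on the log2 scale in GSTA4 against GFP (SE 0.119, edgeR adjusted p 0.0108) and by 0.67 in OSK against GFP (SE 0.121, edgeR adjusted p 0.000113). Against WT it fell by 0.70 (SE 0.117, edgeR adjusted p 7.74e-05) and by 0.95 (SE 0.119, edgeR adjusted p 1.27e-06). OSK and GSTA4 differed by -0.25 (95% interval -0.508 to 0.00499, edgeR adjusted p 0.1). That difference was past the threshold without OSK replicate 2 (-0.37, adjusted p 0.0286) and with library size alone (-0.31, 0.0457). ABCA1 and MYLIP, both known LXR targets, thus changed in opposite directions in each ORF line.

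SOAT1 stayed within a narrow range. It had 84.23, 80.26 and 78.18 CPM in WT, 75.13, 68.96 and 71.94 in GFP, 76.31, 70.7 and 78.64 in GSTA4, and 82.32, 80.59 and 84.49 in OSK. GFP lay below WT and OSK, and GSTA4 overlapped both GFP and WT. SOAT1 rose by 0.20 in OSK against GFP (SE 0.064, edgeR adjusted p 0.0165), a call lost without GFP replicate 2 (adjusted p 0.0695) or OSK replicate 3 (0.0569) and with library size alone (0.158). In GSTA4 against GFP it stood at 0.06 (95% interval -0.0703 to 0.198, edgeR adjusted p 0.499).

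By comparison, 6 of the 9 genes were called in GSTA4 against GFP, 3 higher (NR1H2, ABCA1 and APOE) and 3 lower (NR1H3, MYLIP and LPCAT3). Of all genes tested, 29.2% were called there, 14.7% higher and 14.6% lower. In OSK against GFP 7 were called, 4 higher (NR1H2, ABCA1, LPCAT3 and SOAT1) and 3 lower (NR1H3, MYLIP and APOE), where 45.9% of all genes were called, 23.1% higher and 22.8% lower. These comparisons share the GFP libraries. OSK against GSTA4 gave 5 calls, with NR1H2, ABCA1 and LPCAT3 higher and ABCG1 and APOE lower in OSK, against 47.8% of all genes, 24.1% higher and 23.8% lower. GFP against WT gave 3 calls, NR1H2 lower and NR1H3 and SCARB1 higher, against 22.2% of all genes, 11% higher and 11.2% lower. With WT as the control, 3 genes rose and 2 fell in GSTA4, where 19.7% of all genes were higher, 19% lower and 38.6% called. In OSK against WT 4 rose and 3 fell, where 22.7% were higher, 22.7% lower and 45.4% called. Libraries of the compared groups did not overlap for 6 of the 9 genes in GSTA4 against GFP (42.3% of all genes), 8 in OSK against GFP (54.7%) and 4 in GFP against WT (34.6%). The same held for 6 in OSK against GSTA4 (58%), 5 in GSTA4 against WT (49%) and 7 in OSK against WT (53.5%). The number of the 9 genes called in OSK against GFP was 4, not 7, without GFP replicate 2 or without OSK replicate 3, and the number called in OSK against GSTA4 was 3, not 5, without GSTA4 replicate 2, OSK replicate 1 or OSK replicate 3. The median log2 fold change of the 9 genes was 0.06 in GSTA4 against GFP and -0.17 in OSK against GFP, beside 0.0082 and -0.019 over all genes tested, with genes moving in both directions. Over the 4 groups together, 8 of the 9 genes differed by the F test, where 66.9% of all genes did; SCARB1 was the exception (edgeR adjusted p 0.0643).

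**Figure D3:**
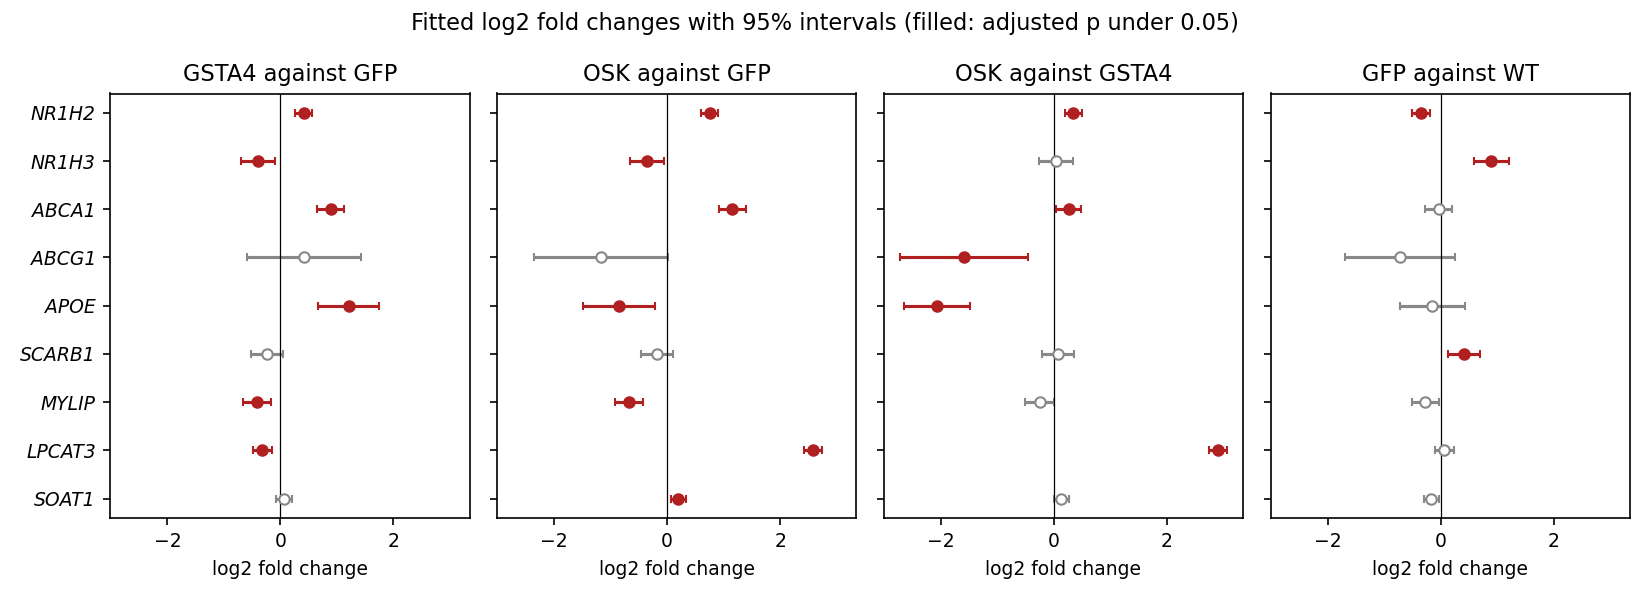
Fitted log2 fold changes of the 9 genes in 4 comparisons, with 95% intervals; filled red points passed the adjusted p threshold of 0.05 and open grey points did not. ABCA1 lies to the right in both ORF lines against GFP and MYLIP to the left, whereas APOE changes side, from 1.21 in GSTA4 to -0.85 in OSK.

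The other genes of the pathway were taken from 6 lists with 83 genes in all, of which 63 were tested. The other 20 did not exceed 1.37 CPM in any library, among them LPL, APOD, APOA1, CETP, CH25H, CD36 and RXRG. Called genes numbered 32 of 63 (50.8%) in GSTA4 against GFP, with 12 higher and 20 lower, and 37 of 63 (58.7%) in OSK against GFP, with 24 higher and 13 lower. OSK against GSTA4 had 43 of 63 (68.3%), of which 31 were higher and 12 lower in OSK. Of all genes tested, 29.2%, 45.9% and 47.8% were called in these comparisons. The median over the lists was -0.03, 0.08 and 0.24 on the log2 scale in these comparisons, beside 0.0082, -0.019 and -0.014 over all genes tested.

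Of 9 partners and coregulators of LXR tested, 1 was higher and 2 were lower both in GSTA4 and in OSK against GFP. The share of all genes called was 29.2% and 45.9% there. NCOA2, a coactivator, rose by 0.40 in GSTA4 (edgeR adjusted p 0.00169) and by 0.22 in OSK (0.043). NRIP1, a corepressor, fell by 0.27 and 0.25. The corepressor NCOR1 was higher in OSK than in GSTA4 by 0.17 (edgeR adjusted p 0.0141). The coactivator NCOA1 fell by 0.35 in OSK against GFP and by 0.35 against GSTA4. The RXR partners were measured at 65.99 CPM ± 8.86 (RXRA) and 102.6 ± 7.29 (RXRB) in GFP, at 67.46 ± 2.84 and 101.4 ± 3.22 in GSTA4, and at 74.94 ± 3.87 and 100.2 ± 5.45 in OSK.

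Among 11 other genes known as LXR targets in at least 1 tissue, 2 rose and 4 fell in GSTA4 against GFP, and 3 rose and 3 fell in OSK against GFP. Beside these counts, 29.2% and 45.9% of all genes were called. SREBF1, the transcription factor through which LXR raises fatty acid synthesis, rose by 0.33 in GSTA4 (edgeR adjusted p 0.000548) and by 0.35 in OSK (0.000162). SCD, the stearoyl-CoA desaturase, fell from 732.8 CPM ± 35.1 in GFP to 234.3 ± 19.7 in GSTA4, a log2 fold change of -1.65 (edgeR adjusted p 1.28e-13). FASN, the fatty acid synthase, fell by 0.61 and PNPLA3, a lipid droplet acyl hydrolase, by 1.44. All of SCD, PNPLA3 and FASN were higher in OSK than in GSTA4, by 1.64, 1.04 and 0.85. Their OSK levels beside GFP differed by gene. SCD had 729.6 CPM ± 19.2 in OSK, near its GFP level. PNPLA3 had 61.3 ± 4.18 in OSK and 80.7 ± 4.89 in GFP, and FASN 637.3 ± 41.3 in OSK and 538 ± 32.9 in GFP. SMPDL3A, a phosphodiesterase, rose by 1.71 in OSK against GFP (edgeR adjusted p 4.43e-07), from 2.62 CPM ± 0.449 to 8.56 ± 0.498.

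Of 8 tested enzymes that make, remove or precede LXR ligands, 5 were lower in GSTA4 and none higher against GFP, where 14.6% of all genes were lower. DHCR7 and EBP, enzymes of the late steps of sterol synthesis, changed by -1.04 and -1.14 in GSTA4 against GFP (edgeR adjusted p 1.12e-09 and 3.78e-06), and by 0.47 and 0.57 in OSK against GFP (1.91e-05 and 0.00109). In OSK against GSTA4 both enzymes were higher, by 1.51 and 1.70. CYP46A1, a cholesterol hydroxylase that makes an oxysterol, fell by 0.73 in GSTA4 and by 0.71 in OSK (edgeR adjusted p 0.000741 and 0.000456). CYP39A1, an oxysterol hydroxylase averaging under 1 CPM in each group, fell as well in both. CYP27A1, which makes another oxysterol, fell by 0.50 in OSK (edgeR adjusted p 0.00335) and was not called in GSTA4, at 14.94 CPM ± 0.631 against 15.21 ± 1.16 in GFP.

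Among 17 genes of lipoprotein uptake and sterol movement, 2 rose and 5 fell in GSTA4 against GFP, whereas 8 rose and 1 fell in OSK. Of all genes, 14.7% rose and 14.6% fell in GSTA4 against GFP, and 23.1% rose and 22.8% fell in OSK. STARD4, a sterol carrier, fell by 1.24 in GSTA4 against GFP (edgeR adjusted p 1.27e-07). LRPAP1, a chaperone of lipoprotein receptors, rose by 1.10 in OSK, and GRAMD1A, which moves plasma membrane cholesterol to the endoplasmic reticulum, fell by 1.10.

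Of 11 efflux and storage genes tested beside the 9 members, 6 rose and 3 fell in GSTA4 against GFP and 6 rose and 2 fell in OSK. Calls covered 29.2% and 45.9% of all genes in these comparisons. LIPE, the hormone-sensitive lipase that also cleaves cholesteryl esters, rose from 13.37 CPM ± 1.87 to 31.93 ± 2.92 in GSTA4 (log2 fold change 1.25, edgeR adjusted p 5.14e-08), and OSK was lower than GSTA4 by a log2 fold change of -1.31. NCEH1, a neutral cholesteryl ester hydrolase, rose from 24.97 CPM ± 4.7 to 101.0 ± 4.27 in OSK (2.02, edgeR adjusted p 8.23e-11), and was higher there than in GSTA4 by 1.57. CAV1, the caveolar protein that binds cholesterol, rose by 1.24 in GSTA4 and by 2.85 in OSK. ABCA7, a close relative of ABCA1, fell by 0.77 in GSTA4, and ABCA3, a lipid transporter of the same family, rose by 0.71 in OSK and was higher there than in GSTA4 by 1.02.

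Among the relatives of LPCAT3, 7 lysophospholipid acyltransferases were tested. Of these, 1 rose and 1 fell in GSTA4 against GFP, and 3 rose and 2 fell in OSK. Of all genes, 29.2% and 45.9% were called in these comparisons. MBOAT1 rose by 2.37 in OSK against GFP (edgeR adjusted p 6.98e-06), from 1.25 CPM ± 0.481 to 6.48 ± 0.449, and LPCAT4 by 1.10 (9.79e-07). MBOAT2 fell by 0.43 and LPCAT2 by 0.26 in OSK against GFP. LPCAT2 fell by 1.47 in GSTA4 (edgeR adjusted p 4.36e-13), where LPCAT4 rose by 0.38. OSK was higher than GSTA4 in MBOAT1 by 2.64, in LPCAT2 by 1.21 and in LPCAT4 by 0.72.

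**Figure D4:**
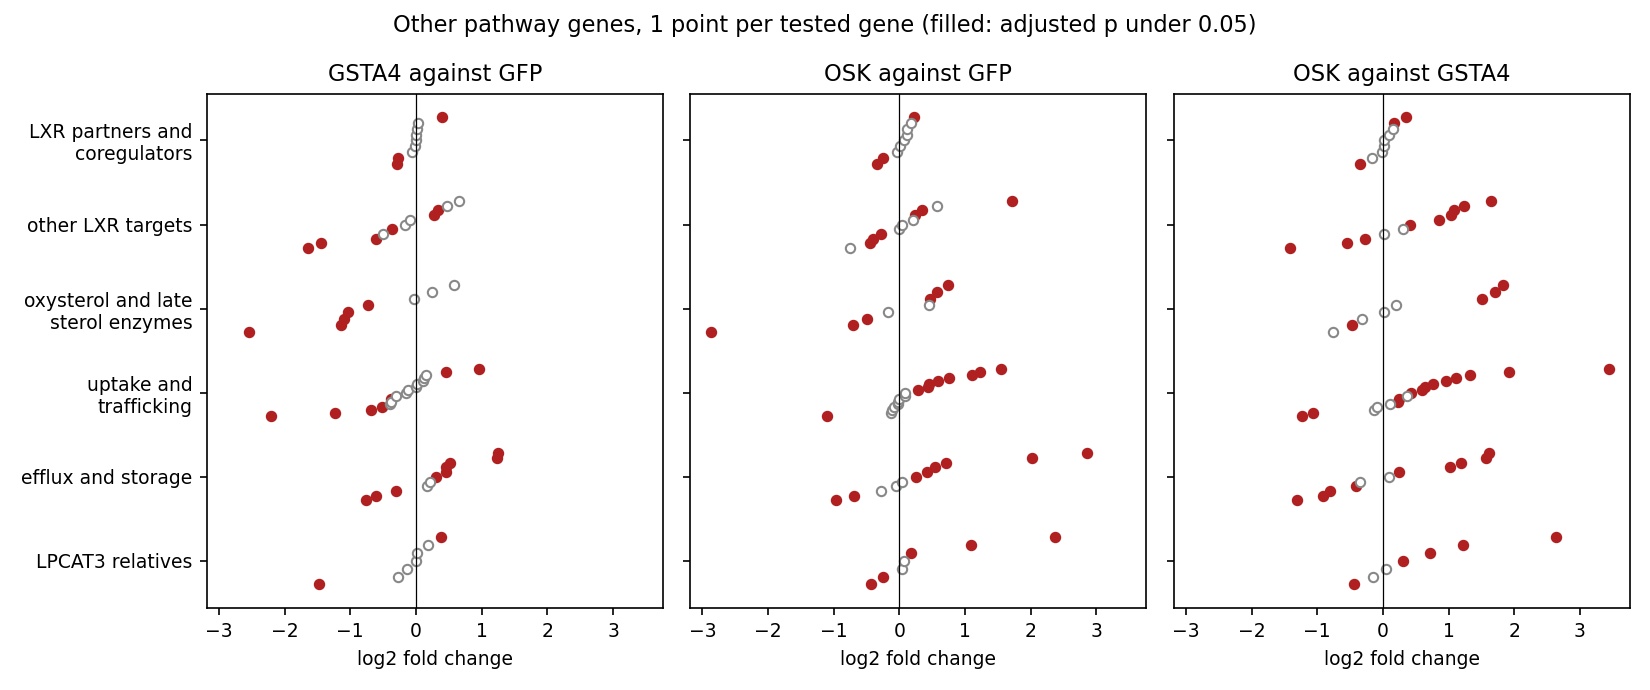
Log2 fold changes of the tested genes of the 6 lists in 3 comparisons, 1 point per gene, filled red where the adjusted p was under 0.05. In the uptake list of 17 tested genes, 8 are higher in OSK against GFP (23.1% of all genes) and 5 are lower in GSTA4 against GFP (14.6% of all genes).

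The genes whose levels followed ABCA1 most closely over the 12 libraries, by Pearson's r of log2 CPM, were PAPSS2 (0.976), which makes the sulphate donor, ITGA7 (0.975), a laminin receptor chain, and HS3ST5 (0.964), a heparan sulphate sulphotransferase. PAPSS2 had 94.64 CPM ± 13.6 in WT and 98.37 ± 3.14 in GFP, beside 227.4 ± 8.28 in GSTA4 and 266.7 ± 29.9 in OSK. For LPCAT3 they were BAG1 (0.998), a cochaperone, KPNA2 (0.997), a nuclear import receptor, and F3 (0.997), the tissue factor. F3 had 272.7 CPM ± 11.4 in GFP and 1079 ± 7.88 in OSK. These values describe 12 libraries that share 4 group means, and no test was made of them.

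Marker levels of other cells moved between the groups as well. The summed CPM of the 9 leukocyte markers was 3.67 to 11.01 in WT, 17.03 to 19.3 in GFP, 0.508 to 0.826 in GSTA4 and 9.88 to 13.6 in OSK. CSF1R gave the largest share of it in each library. PTPRC and LYZ were at 0 in the GSTA4 and OSK libraries, and also in replicates 2 and 3 of WT and GFP. Replicate 1 held 3 and 1 reads of them in WT, and 4 and 3 in GFP. The summed CPM of the 6 endothelial markers was 71.0 to 94.5 in WT, 58.7 to 73.6 in GFP, 36.5 to 38.7 in GSTA4 and 23.7 to 26.6 in OSK. This sum, though not each marker in it, was thus lower in both ORF lines than in both controls, the same split as for ABCA1 and MYLIP. Most of this sum was KDR, a receptor for vascular endothelial growth factor, which fell by 0.74 on the log2 scale in GSTA4 and by 1.41 in OSK against GFP (edgeR adjusted p 6.65e-06 and 4.01e-10). CDH5 was at 0 in the GSTA4 and OSK libraries, and 2 of the 6 markers, KDR and VWF, passed the filter. VWF moved otherwise than KDR: in OSK it was higher than WT by 2.96 (edgeR adjusted p 0.000494) and than GSTA4 by 2.14 (0.0038). Against GFP it was not called in OSK (0.69, edgeR adjusted p 0.278) or in GSTA4 (-1.45, 0.0752). Its OSK mean was 2.04 CPM, beside 23.36 for KDR. The summed CPM of the 8 photoreceptor markers was 10.6 to 16.3 in WT, 20.2 to 21.8 in GFP, 19.5 to 23.9 in GSTA4 and 12.5 to 16.3 in OSK, and 3 of the 8 passed the filter. PDE6B made up most of the photoreceptor sum, at 16.57 CPM ± 1.12 in GFP and 19.7 ± 1.98 in GSTA4. In GSTA4 against GFP it was not called (0.25, edgeR adjusted p 0.188), and neither was ARR3 (0.0068, 0.992), while NRL fell by 1.29 (0.0358). The summed RPE markers were 2424 to 2666 in WT, 2195 to 2528 in GFP, 1579 to 1653 in GSTA4 and 1406 to 1473 in OSK. KRT8 was the largest part of this sum in each group, and KRT8 and KRT18 averaged 1247 and 432.3 CPM in WT. Their means were 842.7 and 313.7 in GFP, 678.7 and 292.3 in GSTA4, and 501.5 and 228 in OSK. Against GFP, 8 of 13 tested markers were lower and 1 higher in GSTA4, where 14.6% of all genes were lower and 14.7% higher. In OSK against GFP 11 of 13 were lower and 1 higher, where 22.8% of all genes were lower and 23.1% higher. The higher markers were LRAT in GSTA4, by 1.87 on the log2 scale (edgeR adjusted p 1.15e-06), and RDH5 in OSK, by 1.44 (2.15e-06). In GFP against WT 9 of the 13 were higher and 2 lower, KRT8 and KRT18, where 11% of all genes were higher and 11.2% lower. The part of these marker changes in the values of the 9 genes was not tested.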

How the data were processed

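Poly(A) RNA-seq libraries were analysed from a table of raw read counts per gene deposited by the authors. Per the submitters' processing notes, STAR 2.7.1a and featureCounts 1.6.2 were used, and human and mouse builds are listed without roles. The annotation release and the strand setting are not given in the sources used here. Of 60605 lines, 20014 without a symbol, holding 0.485% to 0.822% of a library's reads, were left out. Counts were tested with edgeR 4.0.16 in R 4.3.3: filterByExpr with the groups, TMM scaling, 1 quasi-likelihood fit of 12 libraries with group as the only term (8 residual degrees of freedom), two-sided, Benjamini-Hochberg over 15179 genes per comparison. The SE is the log2 fold change over the root of F. Floors of 3 reads cover counting error only.

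On simulated counts of GSTA4 against GFP with 200 changed genes among 15179, the test recovered 85% at a log2 change of 1 and 58% at 0.5, with 5 false calls. In the data 29.2% of all genes were called in this comparison, a far larger share, so these rates need not hold there. The fit was repeated with DESeq2 1.42.0, with RLE scaling or none beyond library size, unfiltered, on genes averaging 1 CPM or more, with replicate numbers blocked, on the 6 libraries of a comparison, and leaving out each library. The members and lists were chosen with earlier results of these data known. Named genes are the 9 members, the ORF genes, the list genes with the 3 lowest adjusted p-values in 3 comparisons, and the 3 genes most like ABCA1 and LPCAT3, the member with the lowest p of the F test. Some genes that this rule names are not reported here. Others named for context (RXRA, RXRB, SREBF1 in GSTA4, CYP27A1, CYP39A1, untested genes, markers and neighbours) were chosen after their values were seen. Exon lengths, overlaps and coordinates came from GENCODE 29 (GRCh38), and promoters from RefSeq (GRCh38.p14).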

Additional observations from a re-analysis of the deposited data

How the results depend on the processing

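Of 33 calls of a member in a comparison, 23 held under all alternatives that could be fitted, including ABCA1, MYLIP and NR1H2 in both ORF lines against GFP, LPCAT3 in OSK and APOE in GSTA4 against GFP. Leaving out 1 library moved the number of members called from 6 to between 5 and 6 in GSTA4 against GFP, from 7 to between 4 and 7 in OSK against GFP, from 5 to between 3 and 5 in OSK against GSTA4, from 3 to between 2 and 4 in GFP against WT, and over the 4 groups from 8 to between 6 and 9. Signs turned for 9 values that were not called in either setting, and the cause was not tested: with library size alone, NR1H3 in OSK against GSTA4 (-0.024) and SOAT1 in OSK against WT (-0.041); and, with 1 library left out, APOE in GFP against WT (0.16 without WT replicate 1, range -0.31 to 0.16), ABCG1 in GSTA4 against WT (0.021 without WT replicate 1, range -0.61 to 0.021), ABCA1 in GFP against WT (0.15 without WT replicate 3 and 0.015 without GFP replicate 3, range -0.18 to 0.15), NR1H2 in GSTA4 against WT (-0.0038 without GSTA4 replicate 1, range -0.0038 to 0.12), NR1H3 in OSK against GSTA4 (-0.033 without GSTA4 replicate 2, range -0.033 to 0.085) and SCARB1 in OSK against GSTA4 (-0.058 without OSK replicate 3, range -0.058 to 0.15). With at most 1 mismatch, 0 of the 7 promoters with a window held the LXR element, since the ABCA1 match has 2 mismatches, and with at most 3 it was again 1. Library size alone took the share of higher calls in OSK against GFP from 50.4% to 39.8% of all calls, in OSK against GSTA4 from 50.3% to 42.5% and in OSK against WT from 50.1% to 41.1%.

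Replicate numbers were shared by the groups, and same-numbered libraries were at most weakly alike. Of 18 same-numbered pairs, 3 had a correlation of deviations over 0.1 (range -0.019 to 0.153), and in 8 of 18 a library correlated best with its own number. The 3 pairs were WT replicate 1 with replicate 1 of GFP (0.153), GSTA4 (0.12) and OSK (0.106). With the replicate block, 4734 rather than 4439 of all genes were called in GSTA4 against GFP and 7269 rather than 6962 in OSK against GFP. In GFP against WT the number was 3779 rather than 3369. The 1 call of a member that the block lost was NR1H3 in OSK against GFP (log2 fold change -0.36, adjusted p 0.0522). Depth limits the values of ABCG1, which had 4 or 5 reads per OSK library. It could not be fitted with a mean of at least 1 CPM or, in OSK against GFP and against GSTA4, with only the 6 libraries compared.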
